A study of Mus musculus with 3 samples.

Results

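Axon guidance genes encode short-range and long-range cues and their receptors, and 64 of the 22068 genes in the tables of RPKM (reads scaled to transcript length and to the depth of the library) belonged to 4 such systems by their symbols. They comprised 20 semaphorins, 9 plexins and 2 neuropilins, 8 ephrins and 14 Eph receptors, 3 slits and 4 Robo receptors, and 4 netrins. RNA was measured in C2C12, a mouse myoblast line that fuses into myotubes when serum is lowered. The 3 stable lines had been transduced with a lentivirus and selected with blasticidin, 1 carrying the empty vector (control), 1 carrying Linc-RAM (overexpression) and 1 carrying a short hairpin RNA against Linc-RAM (knockdown). Polyadenylated RNA was taken after 12 h in differentiation medium with 2% horse serum. Linc-RAM is a muscle long non-coding RNA that the study links to MyoD, and the comparisons address how gene expression differs when its amount is changed.

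Semaphorins signal through plexins, and the secreted class 3 semaphorins mostly need a neuropilin as the ligand-binding partner. Ephrins are held on the cell surface, by a lipid anchor in the A group and by a membrane-spanning segment in the B group, and meet Eph receptor tyrosine kinases on neighbouring cells. Slits are secreted ligands of Robo receptors, and netrins are laminin-like secreted cues read by Dcc, neogenin and the Unc5 receptors. In muscle, these systems are known from motor axon targeting and from satellite cell migration.

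Each condition was 1 library, so the difference between conditions cannot be told apart from a difference between lines or libraries, and no test between conditions was possible. Read totals recovered from the values came to 5130481 (control), 2105513 (overexpression) and 1878146 (knockdown), so the changed lines were read at 41.0% and 36.6% of the depth of the control. All 3 comparisons draw on the same 3 libraries and are not independent. The interval printed after a ratio is an exact 95% Clopper-Pearson interval from the recovered reads, and it covers counting error only. Linc-RAM itself (2310015B20Rik) held 1 read in the overexpression library and was listed at 0 in the others, and therefore checks no label. Of 10 myoblast and early muscle markers, 7 had a mean of at least 1 RPKM, whereas Ckm and Myh3 were listed at 0. Des was among the 7, at 291 (control), 386 (overexpression) and 145 RPKM (knockdown), the order used for all further triplets of values.

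Of the 64 guidance genes, 37 had a mean of at least 1 RPKM over the 3 libraries, 18 lay below that mean and 9 were listed at 0 in every library. The share above this limit was 57.8%, against 46.1% of all 22068 genes. Genes listed at 0 throughout were Epha5, Epha6, Epha10, Ephb1, Plxnb3, Plxnc1, Slit3, Robo4 and Ntn5. The blood vessel receptor gene Robo4 was thus among them, and all 9 endothelial markers lay below a mean of 1 RPKM, with a summed level of 0.105, 0.144 and 0.535 RPKM. Plxnd1, Nrp1, Efnb2 and Ephb4, which are also known from endothelium, were present at 6.40 to 18.1 RPKM.

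**Figure D1:**
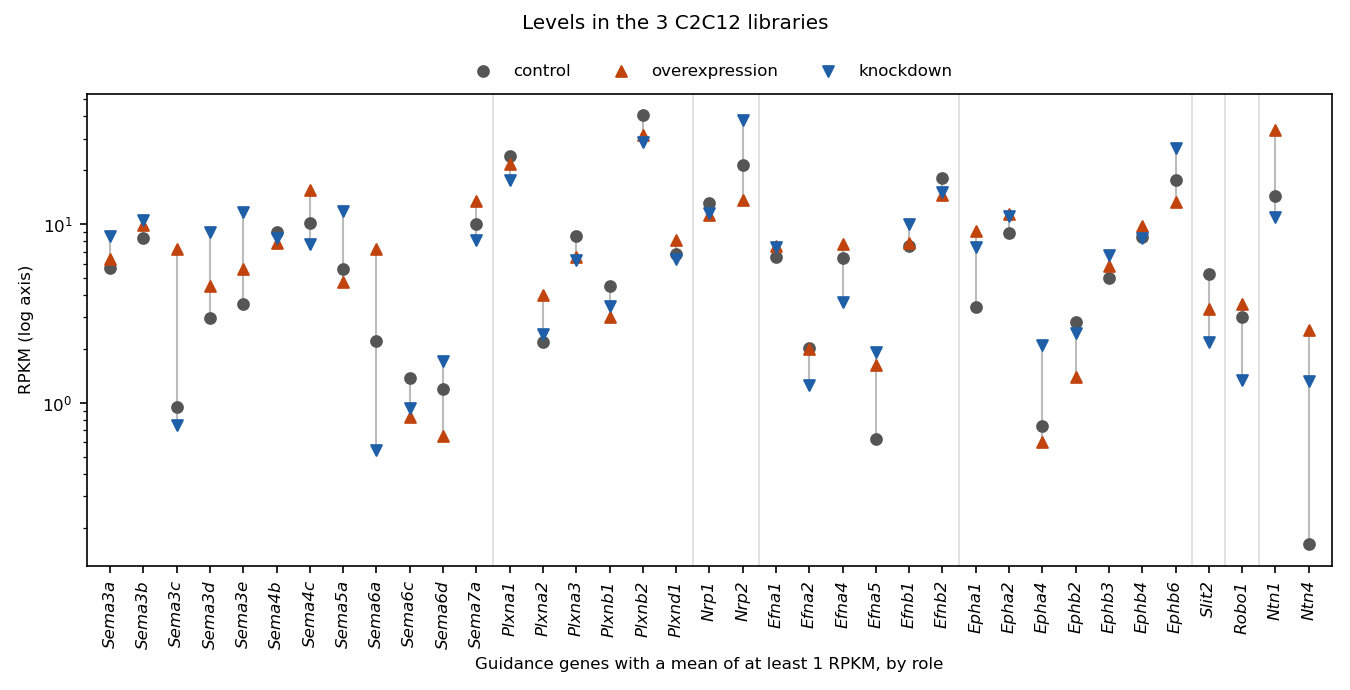
RPKM (log axis) of the 37 guidance genes with a mean of at least 1 RPKM, ordered by role. Each symbol is 1 library, and grey lines join the lowest and highest value. The plexins lie close together in the 3 libraries, whereas Sema3c, Sema6a and Ntn1 are highest with overexpression and Sema3d, Sema3e, Sema5a and Nrp2 with knockdown.

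Receptors of the semaphorin system were the most abundant members in the control. Plxnb2, a receptor for class 4 semaphorins, stood at 40.7 RPKM, followed by Plxna1, a partner of neuropilins, at 24.0 RPKM and Nrp2 at 21.5 RPKM. Efnb2 was the highest ephrin, at 18.1 RPKM, and Ephb6, an Eph receptor without kinase activity, the highest Eph receptor, at 17.7 RPKM. Ntn1 (14.3 RPKM), Sema4c (10.1 RPKM), Slit2 (5.27 RPKM) and Robo1 (3.01 RPKM) led their families. Ntn1 made up 97.8% of the summed netrin level, whereas Sema4c gave 15.9% of that of the semaphorins, whose members were more even.

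**Figure D2:**
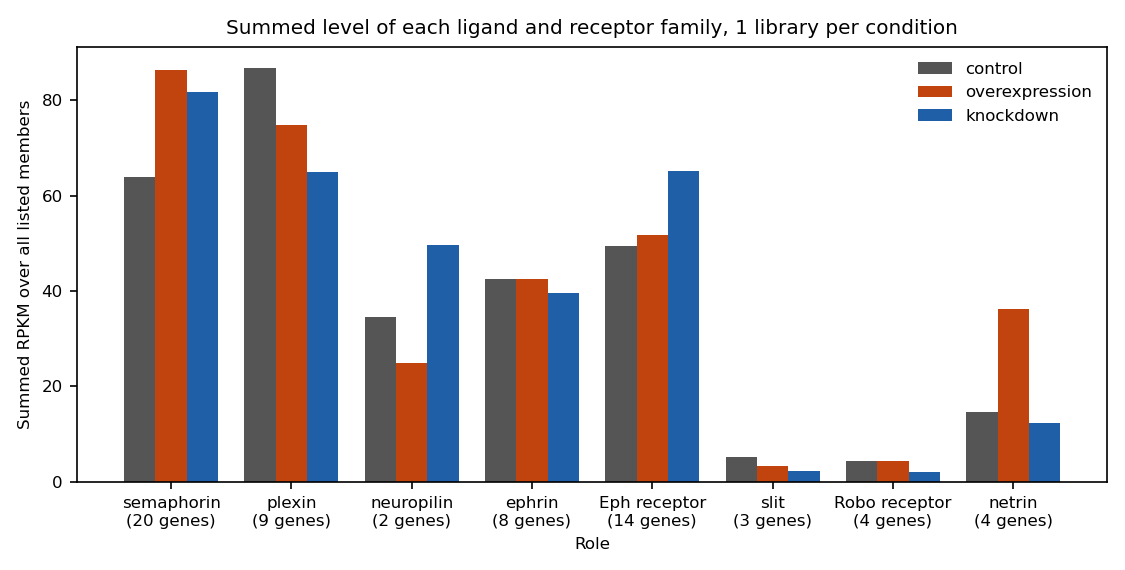
Summed RPKM of all listed members of each family, with 1 bar for each of the 3 libraries. The netrin sum is 36.2 RPKM with overexpression against 14.7 in the control, and the neuropilin sum is 49.7 RPKM with knockdown against 34.5 in the control.

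Summed over families, the semaphorins stood at 63.9, 86.3 and 81.8 RPKM. Both changed lines thus lay above the control. The plexins went the other way, at 86.8, 74.9 and 65.0 RPKM. Ephrins were at nearly the same sum in the 3 libraries (42.6, 42.5 and 39.6 RPKM), and Eph receptors were at 49.5, 51.7 and 65.2 RPKM, with Ephb6 giving 41.0% of the knockdown sum. Slits were at 5.27, 3.33 and 2.30 RPKM and Robo receptors at 4.27, 4.29 and 1.93 RPKM, so that both sides of the Slit and Robo system were lowest with knockdown. No spread between replicates stands behind these sums.

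With Linc-RAM overexpression, 5 ligands (Sema3c, Sema6a, Efna5, Ntn1 and Ntn4) and the receptor Epha1 were 2-fold or more above the control, and the receptor Ephb2 was below it by as much. Of the 37 measured members, 6 exceeded the control by 2-fold or more and 1 lay below it by as much, or 16.2% and 2.70%. Over all genes with a mean of at least 1 RPKM, 376 of 10171 were higher by that much (3.7%) and 353 lower (3.47%). The mean includes the changed lines, and it let in 4 members that were below 1 RPKM in the control, Sema3c, Efna5, Epha4 and Ntn4, each of which had to be higher elsewhere to pass. Among the 35 members with at least 1 RPKM in the control, a limit chosen after the data were seen, 3 were at least 2-fold higher (Sema6a, Epha1 and Ntn1, 8.57%) and 2 lower (Epha7 and Ephb2, 5.71%). Over all genes at that limit the shares were 2.41% and 4.52%. The median log2 ratio of the 37 members was 0.19, beside 0.00 for all genes. It was 0.23 over 21 ligands, with 14 above the control and 7 below, and −0.19 over 16 receptors, with 7 above and 9 below.

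With Linc-RAM knockdown, other semaphorins were higher and the Slit and Robo pair was lower. Of the 37 members, 7 exceeded the control 2-fold or more (18.9%) and 3 lay below it by as much (8.11%), against 350 of 10171 genes higher (3.44%) and 426 lower (4.19%). Among the 35 members with at least 1 RPKM in the control, 4 were higher (11.4%, with 2.25% of all genes) and 5 were lower (14.3%, with 5.13% of all genes). Median log2 ratios lay near those of all genes, at −0.08 over the 37 members, −0.11 over the ligands and −0.06 over the receptors, beside −0.01 over all genes. The members above and below the control thus numbered 17 and 20.

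Set directly against each other, the overexpression and knockdown libraries differed at least 2-fold in 12 of the 37 members, 6 in each direction (16.2% each). Over all genes 618 of 10172 were higher with overexpression by that much (6.08%) and 518 lower (5.09%). Counting intervals excluded a ratio of 1 for each of the member calls in the 3 comparisons. This held for the 6 and 1 against the control with overexpression and the 7 and 3 with knockdown. The calls include Sema3c, Efna5, Epha4 and Ntn4, which passed the mean only through the changed lines, a selection that the intervals do not cover. With an interval excluding 1 required of all genes, 2.59% were higher and 1.89% lower with overexpression, and 2.18% and 2.28% with knockdown. In the direct comparison these shares were 3.59% and 2.75%.

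**Figure D3:**
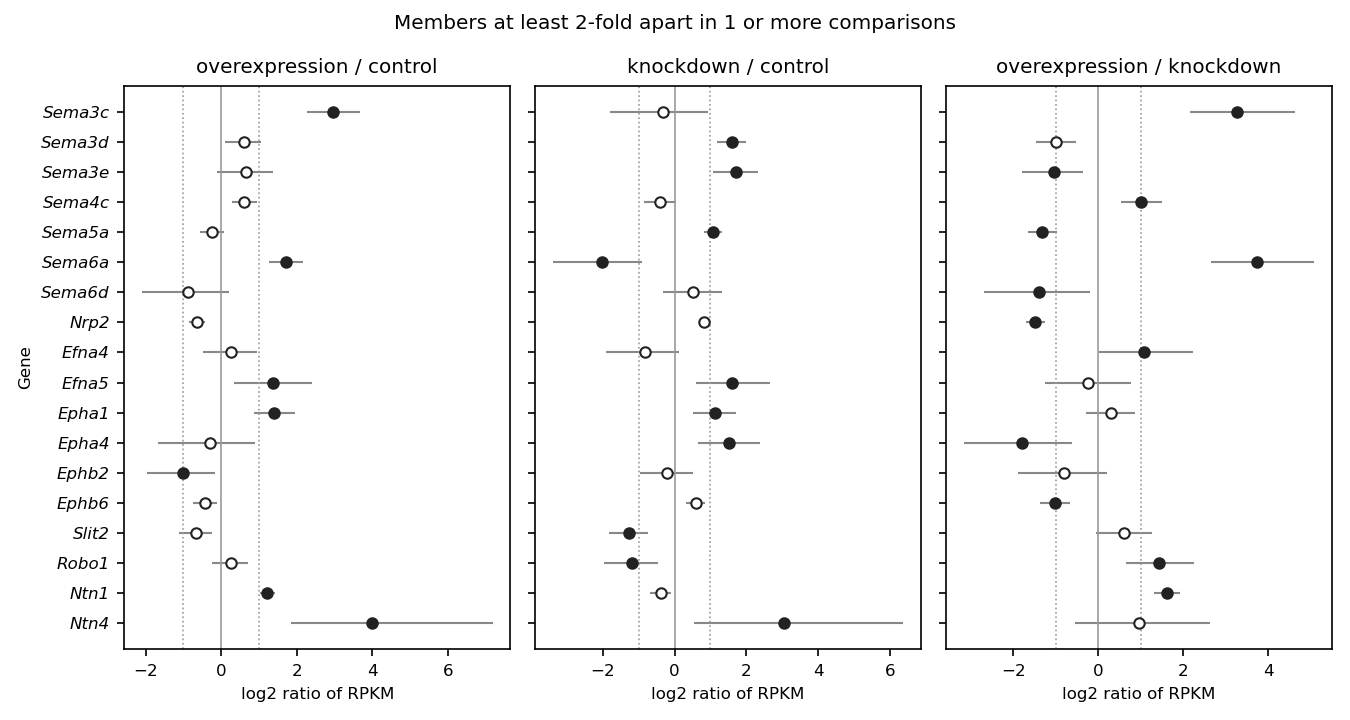
Log2 ratio of RPKM between libraries for the 18 members at least 2-fold apart in 1 or more of the 3 comparisons, with exact 95% counting intervals. Filled points are at least 2-fold (dotted lines), open points are not. Sema6a is filled in all 3 panels, on opposite sides for overexpression and knockdown, and the bars of Ntn4 are the widest since its control held 2 reads.

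The semaphorins split by line. Sema3c, a secreted class 3 semaphorin known from heart outflow and nerve development, was at 0.944, 7.28 and 0.752 RPKM, from 24, 76 and 7 reads. Only the overexpression library was high. The ratio was 7.72 with overexpression (4.82 to 12.8) and 0.797 with knockdown (0.290 to 1.91), where no difference was detectable at this depth. Sema6a, a membrane-bound semaphorin that signals through A-type plexins, was at 2.21, 7.23 and 0.541 RPKM. Its 3 values were set apart in both directions, at a ratio of 3.28 with overexpression (2.42 to 4.45) and 0.245 with knockdown (0.0954 to 0.529). Sema6a was the only one of the 37 members to pass 2-fold in both comparisons with the control in opposite directions, and its direct ratio between these lines was 13.4 (6.27 to 34.1). The direct ratio of Sema3c was 9.68 (4.48 to 24.9). With 1 RPKM added to both values, the direct ratio of Sema6a was 5.34 and the overexpression ratio of Sema3c 4.26.

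Sema3d, Sema3e and Sema5a were highest with knockdown. Sema3d was at 2.99, 4.52 and 8.98 RPKM, and its knockdown ratio was 3.0 (2.27 to 3.98). Sema3e, which can bind plexin D1 without a neuropilin, was at 3.58, 5.61 and 11.6 RPKM, with a knockdown ratio of 3.25 (2.11 to 5.02). Both also stood above the control with overexpression, by 1.51 (1.08 to 2.09) and 1.57 (0.929 to 2.60), and the interval of Sema3e included 1. The reads of Sema3e (42, 27 and 50) were taken at the smallest length that gave whole reads. They may be a fraction of the true ones, so its interval may be too wide and is not a contrast with Sema3d. Sema5a, a membrane-bound semaphorin with thrombospondin repeats, was at 5.59, 4.75 and 11.8 RPKM, a knockdown ratio of 2.11 (1.78 to 2.51) beside an overexpression ratio of 0.849 (0.676 to 1.06). Its direct ratio of 0.401 (0.317 to 0.506) was therefore one of 3 semaphorin values at least 2-fold lower with overexpression than with knockdown. Its knockdown ratio was 1.95 with 1 RPKM added. The others were Sema3e at 0.482 (0.290 to 0.784) and Sema6d at 0.382 (0.154 to 0.871), and Sema3d lay just short of 2-fold at 0.503 (0.362 to 0.693). With 1 RPKM added, Sema3e stood at 0.523 and Sema6d at 0.610, both short of 2-fold.

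Among the remaining semaphorins, Sema4c, a membrane-bound ligand of B-type plexins, was at 10.1, 15.5 and 7.70 RPKM. Its ratios to the control were 1.53 (1.21 to 1.92) and 0.759 (0.552 to 1.03), and the direct ratio of 2.01 (1.45 to 2.82) was just past 2-fold, and 1.89 with 1 RPKM added. Sema7a, which carries a lipid anchor, followed the same order at 10.0, 13.5 and 8.13 RPKM without a 2-fold difference. Sema3a, Sema3b, Sema4b and Sema6c were within 2-fold in all 3 comparisons. Below a mean of 1 RPKM were Sema3f, Sema3g, Sema4a, Sema4d, Sema4f, Sema4g, Sema5b and Sema6b, none with more than 18 reads in a library.

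Sema3d, Sema3a, Sema3e and Sema3c are neighbours on chromosome 5 of mm9 (forward strand), in a stretch of 4.85 Mb from 12383166 to 17236086 that was picked out after the values were seen. The stretch held 14 listed genes, of which 7 were at 0 in every library and 6 had a mean of at least 1 RPKM. Besides the semaphorins these were Cacna2d1, a calcium channel subunit gene, and Hgf, which encodes the growth factor that activates satellite cells. With knockdown, Sema3d (3.0), Sema3a (1.5, 1.16 to 1.94) and Sema3e (3.25) lay above the control, and so did Cacna2d1 at 1.44 (1.15 to 1.80). Hgf stood at 1.02 (0.561 to 1.79) and Sema3c at 0.797. With overexpression, Hgf was at 1.83 (1.15 to 2.87), Cacna2d1 at 1.43 (1.15 to 1.78) and Sema3c at 7.72, so that the last gene of the stretch had its high library elsewhere than the first.

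**Figure D4:**
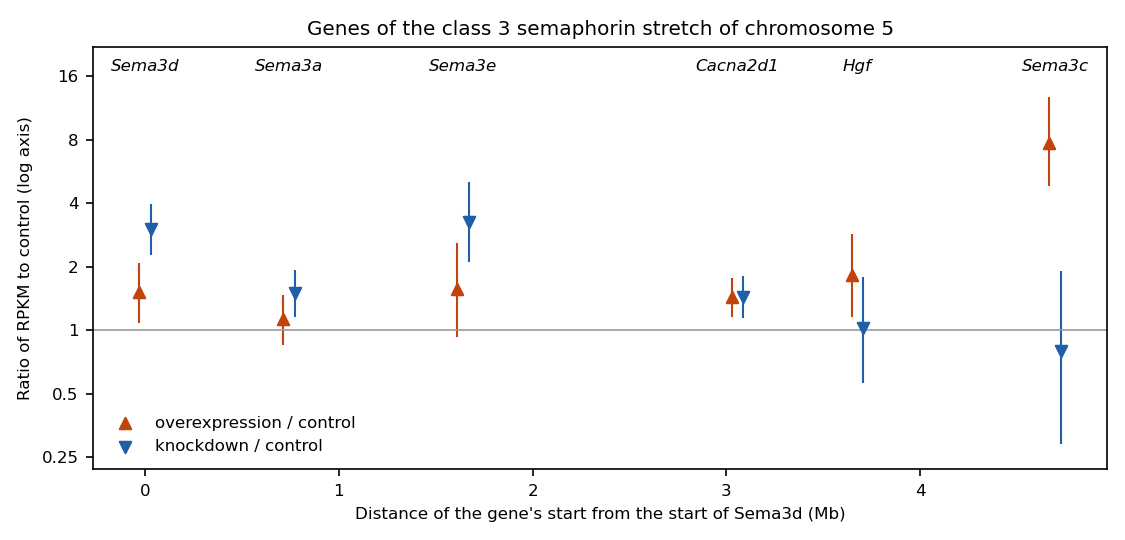
Ratio of RPKM to the control (log axis) for the 6 genes with a mean of at least 1 RPKM between Sema3d and Sema3c, against the distance of each gene's start from that of Sema3d in Mb. Triangles pointing up are overexpression, triangles pointing down knockdown, and bars are exact 95% counting intervals. Knockdown values are highest at Sema3d and Sema3e (3.0 and 3.25), and the overexpression value is highest at Sema3c (7.72).

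The 250 bases before the starts of Sema3d and Sema3e are shown since both genes were highest in the same library and MyoD, the partner that the study assigns to Linc-RAM, binds E-boxes (CANNTG on either strand). Sequences are those of the RefSeq promoter table for GRCm38.p6, and each matched mm9 exactly once on chromosome 5, forward strand, at chr5:12382916-12383165 for Sema3d and chr5:14025026-14025275 for Sema3e. Capitals mark CANNTG.
Sema3d: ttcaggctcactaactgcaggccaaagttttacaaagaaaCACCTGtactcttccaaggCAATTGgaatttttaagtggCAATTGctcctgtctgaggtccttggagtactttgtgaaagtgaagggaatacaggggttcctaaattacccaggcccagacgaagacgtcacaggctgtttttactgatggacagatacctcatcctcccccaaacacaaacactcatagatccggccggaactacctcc
Sema3e: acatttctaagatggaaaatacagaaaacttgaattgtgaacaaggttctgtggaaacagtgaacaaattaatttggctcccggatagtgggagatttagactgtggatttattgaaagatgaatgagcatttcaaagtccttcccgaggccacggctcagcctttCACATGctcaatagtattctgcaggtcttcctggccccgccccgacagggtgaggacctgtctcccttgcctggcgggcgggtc
Sema3d held 3 matches, of the forms CACCTG and CAATTG, and Sema3e 1, of the form CACATG. Neither held the form CAGCTG, and no other narrower form was counted over all genes. The general motif is short and common, being present in 66.2% of 32851 such windows of all genes. The form CAGCTG, a part of these matches, was in 13.0% of them. Of the 64 members, 56 had a window in the table, of which 32 held the general motif (57.1%) and 12 the narrower form (21.4%), beside 69.3% and 14.7% of the 27025 genes in the table.

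On the receptor side, Nrp2 differed most among the semaphorin receptors. This neuropilin, which binds Sema3c and Sema3f among others, was at 21.5, 13.7 and 38.2 RPKM, from 894, 234 and 583 reads. Nrp2 was lowest where Sema3c was highest. Sema3f, at 0.517, 0.560 and 1.10 RPKM, was like Nrp2 highest with knockdown, and no relation between them was tested. Ratios of Nrp2 to the control were 0.638 (0.550 to 0.737) and 1.78 (1.60 to 1.98), neither at 2-fold. Its direct ratio of overexpression to knockdown was 0.358 (0.306 to 0.417). Nrp1, the main neuropilin for Sema3a, stood at 13.1, 11.2 and 11.5 RPKM, with both intervals of its ratios to the control including 1. No plexin of the 6 measured was 2-fold apart in any comparison. Plxna2 was the farthest above the control, at 2.19, 4.0 and 2.41 RPKM and an overexpression ratio of 1.83 (1.38 to 2.41). Plxnb2 was at 40.7, 31.4 and 28.7 RPKM, with ratios of 0.773 (0.660 to 0.902) and 0.707 (0.596 to 0.835), and Plxna3 at 8.59, 6.50 and 6.29 RPKM. Plxnb1, Plxna1 and Plxnd1 were within 2-fold as well, and Plxna4 had at most 6 reads in a library.

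Of the 6 measured ephrins, 1 passed 2-fold against the control. Efna5, a lipid-anchored ephrin used in axon mapping, was higher in both changed lines, at 0.630, 1.63 and 1.92 RPKM. The ratios were 2.58 (1.25 to 5.33) and 3.05 (1.5 to 6.25), from 17, 18 and 19 reads. With 1 RPKM added to both values they were 1.61 and 1.79, below 2-fold. The control was thus the low library, and the changed lines did not differ detectably from each other (0.845, 0.418 to 1.70). Efna4 was at 6.47, 7.74 and 3.67 RPKM, and only its direct ratio passed 2-fold, at 2.11 (1.01 to 4.73), or 1.87 with 1 RPKM added. Efnb2, the membrane-spanning ephrin of arteries and of many progenitors, was at 18.1, 14.6 and 15.0 RPKM. Its 2 ratios to the control were 0.810 (0.661 to 0.988) and 0.833 (0.675 to 1.02). Efna1, Efna2 and Efnb1 were within 2-fold in all comparisons. Efna1, Efna3 and Efna4 lie side by side on chromosome 3 of mm9, from 89075655 to 89141950, and in the knockdown library they stood at 7.46, 0 and 3.67 RPKM, the 0 coming from a gene with 4 reads in the control. Efnb3 had at most 12 reads in a library.

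The Eph receptors that were 2-fold apart did not move as a group. Epha1, an A-type receptor first found in carcinoma cells, was higher in both changed lines, at 3.45, 9.14 and 7.48 RPKM, with ratios of 2.65 (1.82 to 3.85) and 2.17 (1.44 to 3.25). Its direct ratio of 1.22 (0.822 to 1.83) included 1 in its interval, and its knockdown ratio was 1.9 with 1 RPKM added. Epha4, a receptor for ephrins of both groups that repels motor axons, was high in the knockdown library only, at 0.739, 0.600 and 2.10 RPKM and a ratio of 2.85 (1.56 to 5.20). That ratio was 1.78 with 1 RPKM added, and the direct one went from 0.285 (0.111 to 0.653) to 0.516. Ephb6 was at 17.7, 13.3 and 26.8 RPKM, and its direct ratio was 0.496 (0.387 to 0.632), or 0.514 with 1 RPKM added. Ephb2 was the only measured member at least 2-fold lower with overexpression, at 2.81, 1.39 and 2.45 RPKM and a ratio of 0.494 (0.257 to 0.887), which was 0.627 with 1 RPKM added. Epha2, Ephb3 and Ephb4 were within 2-fold, at 4.98 to 11.3 RPKM. Epha3 and Epha8 had 1 read each in all.

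Epha7 fell just outside the limit on low values, with a mean of 0.987 RPKM, while Sema6c just passed it at 1.05. Epha7, a receptor for A-type ephrins, was at 2.28, 0.417 and 0.267 RPKM, from 93, 7 and 4 reads. Its ratios of 0.183 (0.0718 to 0.393) and 0.117 (0.0314 to 0.311) are named after the values were seen, and both changed lines lay far below the control. Robo2, also outside at a mean of 0.838 RPKM, was at 1.21, 0.708 and 0.595 RPKM, with ratios of 0.585 (0.283 to 1.11) and 0.492 (0.213 to 1.01).

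Slit2 and Robo1 were the only measured members of their system. Slit2, the secreted ligand, was at 5.27, 3.33 and 2.20 RPKM. Both changed lines were below the control, with ratios of 0.632 (0.462 to 0.851) and 0.417 (0.280 to 0.604). Robo1, its receptor, was at 3.01, 3.58 and 1.34 RPKM, so that only the knockdown library was low. The knockdown ratio of Robo1 was 0.444 (0.258 to 0.724), the overexpression ratio 1.19 (0.849 to 1.64) and the direct ratio 2.68 (1.57 to 4.76). With 1 RPKM added, the knockdown ratios were 0.510 for Slit2 and 0.582 for Robo1, and the direct ratio of Robo1 was 1.96, all short of 2-fold. Robo1 and Robo2 are neighbours on chromosome 16 of mm9, at 72663394 to 73046340 and 73892551 to 74412070. Slit1 and Robo3 had 1 read each in all, Slit1 in the knockdown and Robo3 in the control library.

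Ntn1 was the member with the most reads behind a 2-fold difference from the control. It encodes netrin-1, lies on chromosome 11 of mm9 (68022866 to 68214325) and was at 14.3, 33.5 and 10.9 RPKM, from 422, 405 and 118 reads. The overexpression library was high, at a ratio of 2.34 (2.04 to 2.69) and a direct ratio of 3.06 (2.49 to 3.79). With knockdown the ratio was 0.764 (0.617 to 0.939), below the control beyond counting error though within 2-fold. Ntn4, a netrin of basement membranes, was at 0.162, 2.56 and 1.33 RPKM, from 2, 13 and 6 reads. Its ratios of 15.8 (3.59 to 145) and 8.20 (1.47 to 83.0) rest on those 2 control reads, and with 1 RPKM added the first was 3.07. Ntn3 had at most 4 reads in a library.

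Netrin receptors and the other signalling partners came from a list of 58 genes, of which 57 were listed in the files and 37 had a mean of at least 1 RPKM. With overexpression 2 of these passed 2-fold upwards and 1 downwards, with knockdown 3 higher and 1 lower, and in the direct comparison 3 higher and 3 lower, and the median log2 ratios were −0.01, −0.08 and 0.00. The shares over all genes, higher and lower, were 3.7% and 3.47% with overexpression, 3.44% and 4.19% with knockdown and 6.08% and 5.09% in the direct comparison. The netrin receptor gene Unc5c was at 4.91, 1.28 and 3.26 RPKM, an overexpression ratio of 0.26 (0.165 to 0.394). Ntn1 and Unc5c thus stood at opposite ends in the overexpression library. Unc5b, at 22.4, 18.8 and 21.1 RPKM, and Neo1, at 8.15, 6.75 and 7.93 RPKM, were within 2-fold, whereas Dcc, Unc5a and Unc5d were listed at 0 throughout.

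L1cam, an adhesion molecule that joins neuropilin-1 in the response to Sema3a, was at 0.627, 4.94 and 0.201 RPKM, from 17, 55 and 2 reads, and passed the limit on low values only through the overexpression library. The overexpression ratio was 7.88 (4.51 to 14.5) and the knockdown ratio 0.321 (0.0360 to 1.35), the latter within counting error of 1. Fyn, a Src-family kinase used by semaphorin, Eph and netrin receptors, was at 4.81, 12.1 and 4.33 RPKM and a ratio of 2.52 with overexpression (1.87 to 3.40). Tiam1, a Rac activator that Eph receptors recruit, was higher with knockdown only, at 1.2, 1.16 and 3.07 RPKM and a ratio of 2.56 (1.67 to 3.93). Rnd1, a plexin-binding GTPase, and Ngef, the ephexin that acts below EphA4, were also at least 2-fold higher with knockdown, at 2.24 (0.819 to 5.93) and 2.00 (0.832 to 4.67), and both intervals included 1. Evl, an actin regulator of the Ena/VASP family, passed 2-fold in the direct comparison alone, at 2.17 (0.854 to 6.18).

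The 10 muscle markers summed to 385, 565 and 223 RPKM, and Des gave most of each sum. Among the members at least 2-fold apart in a comparison, Sema3c, Sema4c, Sema6a, Efna4, Robo1 and Ntn1 had the order of this sum. Sema5a, Sema6d, Nrp2, Epha4 and Ephb6 had the reverse order. Of these named genes, only Sema6a, Ntn1, Nrp2 and Ephb6 had intervals excluding 1 in both comparisons with the control. For the others at least 1 step of the order lay within counting error. The share of all genes with either order was not counted. Of the 7 measured muscle markers, 2 were at least 2-fold higher with overexpression (Myod1 and Myog). With knockdown 2 were lower by that much (Des and Cdh15), and 4 were higher in the direct comparison. Myog was at 3.95, 22.1 and 3.6 RPKM, with a knockdown ratio whose interval included 1 (0.911, 0.397 to 1.91). Tnnt2, at 9.97, 9.55 and 9.82 RPKM, was nearly level, and Chrna1, at 28.7, 55.6 and 32.9 RPKM, was lowest in the control. The 9 listed neuronal markers summed to 119, 175 and 34.1 RPKM. Of the 5 with a mean of at least 1 RPKM, 4 were at least 2-fold higher with overexpression, including Tubb3 at 26.2, 92.6 and 19.8 RPKM, and all 5 were higher by that much in the direct comparison. Stmn2, at 81.9, 37.4 and 9.51 RPKM, was the exception with its highest value in the control, and Rbfox3, Snap25 and Elavl4 were at 0 in every library. Schwann and glial markers summed to 0.320, 1.08 and 0.321 RPKM, with Sox10 and Gfap at 0. Fibroblast markers summed to 81.9, 35.3 and 73.3 RPKM, nearly all of it from Col1a1 at 78.2, 32.0 and 65.7 RPKM, which was highest in the control. Pdgfra, the other measured marker, was highest with knockdown, at 3.39, 2.68 and 6.56 RPKM. The part of these markers in the differences of the guidance genes was not tested, and in RNA from whole cultures a change in the share of cells of a kind and a change in RNA per cell cannot be told apart.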

How the data were processed

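Reads were mapped to mm9 by the authors with TopHat (1.4.1 in the submitters' processing notes), the read coverage per gene was taken with DEGSeq, and 1 RPKM value per gene and library was deposited. How genes were annotated, how reads with several mapping positions were handled and which total scaled the RPKM was not given in the sources used here. Members were rows whose symbol matched the family names, and the members and lists were chosen with earlier results of these data known.

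Ratios of RPKM were taken without a pseudocount over genes with a mean of at least 1 RPKM, and 2-fold, the criterion in the study's methods, was the limit. A gene listed at 0 in 1 of 2 libraries counted by direction. Members at least 2-fold apart in a comparison, and the highest of each family, were described in full. The read total of each library was the smallest at which the 1500 genes with the lowest values gave whole reads at a GENCODE vM1 transcript length, with support of at least 0.85 of that of the best-supported total. At those totals 31.1%, 28.3% and 30.1% were whole, pooled over adjacent steps of a relative 1e-05. Single steps that held any whole gene had a median of 0.0667%, the lowest share possible for them. These shares are therefore not measured alike. Reads per gene were taken at an annotated length that made all 3 libraries whole (12 members) or otherwise at the smallest such length from 200 nt (43 members). Reads taken at the smallest length can be lower than the true ones, which would make an interval too wide. The effect of reads with several mapping positions on the intervals was not examined. On simulated data all 3 totals were recovered, and with lengths not given 91.4% of 500 genes had their exact reads and 99.8% had no more than those. In the simulated overexpression against control, the 2-fold limit was met by 99 of the 100 genes set to 4-fold and by 93 of the 100 set to 0.25. Alternatives were other limits on low values, 1 RPKM added, division by the median ratio and a required counting interval. Gene positions are those of GENCODE vM1 on mm9. Software was Python 3.11.15 with scipy 1.17.1, numpy 2.4.6, matplotlib 3.10.9 and pandas 2.3.3.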

Additional observations from a re-analysis of the deposited data

How the results depend on the processing

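Division by the median ratio of all genes and the added need for a counting interval that excludes 1 left each of the 6 member counts (at least 2-fold higher or lower in 3 comparisons) within 1.5 times the reported one. At a mean of at least 5 RPKM, the counts with overexpression against control were 2 higher and 0 lower (6 and 1 as reported), with knockdown against control 4 and 0 (7 and 3), and 3 higher with overexpression against knockdown (6). With no limit on low values, 8 were lower with overexpression, 11 higher and 14 lower with knockdown, and 11 higher in the direct comparison. With 1 RPKM added to both values, 0 were lower with overexpression, 3 higher and 1 lower with knockdown, and 3 higher and 2 lower in the direct comparison. The shares over all genes were not counted at these settings, so these counts have no background beside them. Without a limit, genes such as Epha3 and Robo3 counted as lower on 1 read in the more deeply read control. At a control of at least 1 RPKM, chosen after the data were seen, the counts were 3 and 2 with overexpression and 4 and 5 with knockdown. Of 54 ratios of the 18 members, 3 left their counting interval when 1 RPKM was added and none turned direction. A member with few reads could not be compared at this depth, with 1 library per condition, and leaving out a library was not possible. No paired analysis was possible because each condition is 1 library.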
